A study of Homo sapiens with 12 samples.

Results

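The HBI, HBII and mg snoRNAs are small nucleolar RNAs that carry the names given at their cloning, and 33 such entries were described here across wild-type and 5-LOΔ Mono Mac 6 (MM6) cells. They were chosen by name: every entry of type snoRNA whose name begins with HBI-, HBII- or mg, with the copies of HBII-52, HBII-85, HBII-13, HBII-436, HBII-437 and HBII-438 left out. All 33 were listed in the table without LPS, which holds 1231 noncoding RNAs including 287 snoRNAs, and in the table with LPS, which holds 1139 noncoding RNAs and also 287 snoRNAs. MM6 is a human monocytic cell line. The knockout cells carry CRISPR/Cas9 frameshifts in ALOX5, the gene of 5-lipoxygenase (5-LO, which makes leukotriene precursors), and come from 2 single-cell clones, without a label that tells which library came from which clone. Differentiation of all cells, wild type and knockout, was with TGF-β at 1 ng/mL together with calcitriol at 50 nM, for 72 h per the labels. Then 6 of the 12 samples received 1 µg/mL of the bacterial lipopolysaccharide LPS for 6 h and the others none, which gave 4 groups of 3 libraries (wild type and knockout, each with and without LPS). ALOX5 mRNA is not part of a small RNA library, so the genotype was not checked here.

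snoRNAs are stable nuclear RNAs that are mostly cut out of introns of a host gene. C/D box snoRNAs (symbols SNORD) carry a C box near their start and a D box near their end and guide 2′-O-methylation: the base of the target that pairs with the fifth base before a D box becomes methylated. H/ACA box snoRNAs (SNORA) end with an ACA box and guide pseudouridylation, and small Cajal body RNAs (SCARNA) guide either modification on spliceosomal RNAs. Most of the members are known guides of ribosomal RNA (rRNA). In the mg names the letters after mg give the target, 28S rRNA for mgh28S and U2, U4, U6 or U12 small nuclear RNA (snRNA) for the mgU names.

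By their RefSeq synonyms, 27 members were paired with 26 symbols, of which 20 members were SNORD, 3 SNORA (HBI-6, HBI-61 and HBI-115) and 4 SCARNA (HBI-100, HBII-382, mgU2-19/30 and mgU2-25/61). No symbol was paired with HBII-82B, HBII-95B, HBII-99B, HBII-108B, mgh28S-2409 or mgU12-22/U4-8. A locus in GRCh37 (hg19) was found for 23 members. All 23 lay within a host gene on the same strand, 15 in an intron of every transcript that spans them and 8 in an exon of at least 1 transcript. The hosts include genes of ribosome assembly and translation (NOP58, NOP53, GNL3, WDR43, EIF4A1, EIF4A2, EIF4G1 and RPL37) and noncoding hosts (SNHG12, SNHG26, SNHG30, ZFAS1 and DANCR).

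The sequences below are those of the 6 located members that the results turn on. HBII-420 (SNORD99; chr1:28905261-28905334, minus strand, an intron of SNHG12) and HBII-99 (SNORD12; chr20:47897220-47897309, plus strand, in an intron of 10 ZFAS1 transcripts and an exon of 1) are abundant C/D box RNAs that stood on opposite sides of the wild type. HBII-180A, HBII-180B and HBII-180C (SNORD88A, SNORD88B and SNORD88C; chr19:51302699-51302789, chr19:51302289-51302379 and chr19:51305585-51305675, minus strand) are 3 copies within the transcribed pseudogene C19orf48P, HBII-180A in an intron of every transcript and the others also in an exon of at least 1. HBI-115 (SNORA47; chr5:76376259-76376396, minus strand, an intron of ZBED3) had the highest knockout ratio. Capitals mark GATG of the C box and CTGA of the D box in the C/D box RNAs and ACA in HBI-115 (GRCh37, 5′ to 3′).
HBII-420: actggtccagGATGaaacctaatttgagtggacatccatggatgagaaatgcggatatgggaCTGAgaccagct
HBII-99: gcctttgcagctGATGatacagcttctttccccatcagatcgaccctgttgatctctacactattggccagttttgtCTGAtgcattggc
HBII-180A: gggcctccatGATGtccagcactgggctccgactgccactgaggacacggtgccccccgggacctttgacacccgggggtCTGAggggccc
HBII-180B: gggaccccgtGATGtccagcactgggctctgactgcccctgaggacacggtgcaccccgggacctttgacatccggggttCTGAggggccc
HBII-180C: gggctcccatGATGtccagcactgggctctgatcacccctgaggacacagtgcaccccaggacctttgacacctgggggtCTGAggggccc
HBI-115: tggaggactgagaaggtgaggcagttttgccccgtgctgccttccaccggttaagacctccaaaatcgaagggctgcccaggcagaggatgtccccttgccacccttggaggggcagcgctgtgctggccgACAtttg

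The letters GATG within the first 30 bases together with CTGA within the last 15, searched on the gene's own strand, were held by 15 of the 18 located SNORD members (83.3%) and by 106 of 116 other SNORD rows (91.4%). Those without both were HBII-234, HBII-295 and HBII-296B. In HBII-234 and HBII-295 a CTGA lies shortly before the last 15 bases, and HBII-296B is annotated at 222 nt. The share thus depends on the search windows and annotated ends and does not show that boxes are missing. ACA within the last 7 bases was held by 2 of the 3 SNORA members (66.7%) and by 58 of 63 other SNORA rows (92.1%).

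The U6 guides show how the position in an mg name relates to the sequence. mgU6-47 (SNORD7; chr17:33900676-33900772, plus strand, in an intron of 4 SNHG30 transcripts and an exon of 1) and mgU6-77 (SNORD10; chr17:7480129-7480270, plus strand, in an intron of 15 EIF4A1 transcripts and an exon of 1) each hold a stretch complementary to U6 snRNA directly before a CTGA. The elements are shown with CTGA in capitals, and the U6 stretches, from RNU6-1 (chr15:68132277-68132383, minus strand), with the base that faces position 5 before CTGA in capitals.
mgU6-47 element: taatcttctctCTGA
U6 bases 43 to 53: agagAagatta
mgU6-77 element: tgcgtgtcatCTGA
U6 bases 73 to 82: atgaCacgca
The mgU6-47 element (bases 79 to 89 of the gene) pairs over 11 bases and base 5 before its CTGA faces U6 position 47. The mgU6-77 element (bases 19 to 28) pairs over 10 bases and base 5 before its CTGA faces U6 position 77, so that in both the faced position is the number in the name.

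The values are the authors' means of normalized counts over 3 libraries, 1 mean per genotype in each table. Because no value of a single library is given, the spread between libraries could not be seen, no difference was tested, and whether groups overlap is unknown. The reads behind the means were estimated from the steps between low values, from which the size factor of each library (its depth relative to the others of its table) was recovered. The deepest library of a group was 1.41 times (wild type) and 1.84 times (knockout) as deep as the shallowest without LPS, and 2.58 and 1.60 times with LPS. The 95% intervals given below cover counting error only. The SE of a log2 ratio from counting ran from 0.0024 for the most abundant member to 0.21 for the least abundant, whose estimated reads in a group were as few as 77.7. Of the sum of all means, snoRNAs held 64.4% (wild type) and 59.4% (knockout) without LPS, and 64.2% and 60.2% with LPS, a difference in composition whose part in the ratios was not tested.

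The means of the members ran from 22.5 normalized counts (mgU12-22/U4-8 in wild-type cells with LPS) to 329849 (HBII-420 in knockout cells without LPS), and none was at 0 in any group. Together they made up 10.6% (wild type) and 10.7% (knockout) of the snoRNA sum without LPS, and 10.8% and 11.2% with LPS. Within this share the main members stood in different proportions in the 2 genotypes. HBII-420, a C/D box guide, held 24.8% (wild type) and 42.7% (knockout) of the member sum without LPS, and 25.1% and 40.9% with LPS. Without HBII-420, the other members summed to 552745 (wild type) and 441865 (knockout) without LPS, a log2 ratio of -0.32, and to 503439 and 405726 with LPS, a log2 ratio of -0.31. Of these sums, HBII-99B, HBII-180C and HBII-99 made up 405725 and 318659 without LPS, and 374602 and 291771 with LPS. The lower sums thus mostly reflect HBII-99B and HBII-99 and do not describe the remaining members. The 4 most abundant members, HBII-420, HBII-99B, HBII-180C and HBII-99, held 80.0% to 84.0% of the member sum in every group.

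**Figure D1:**
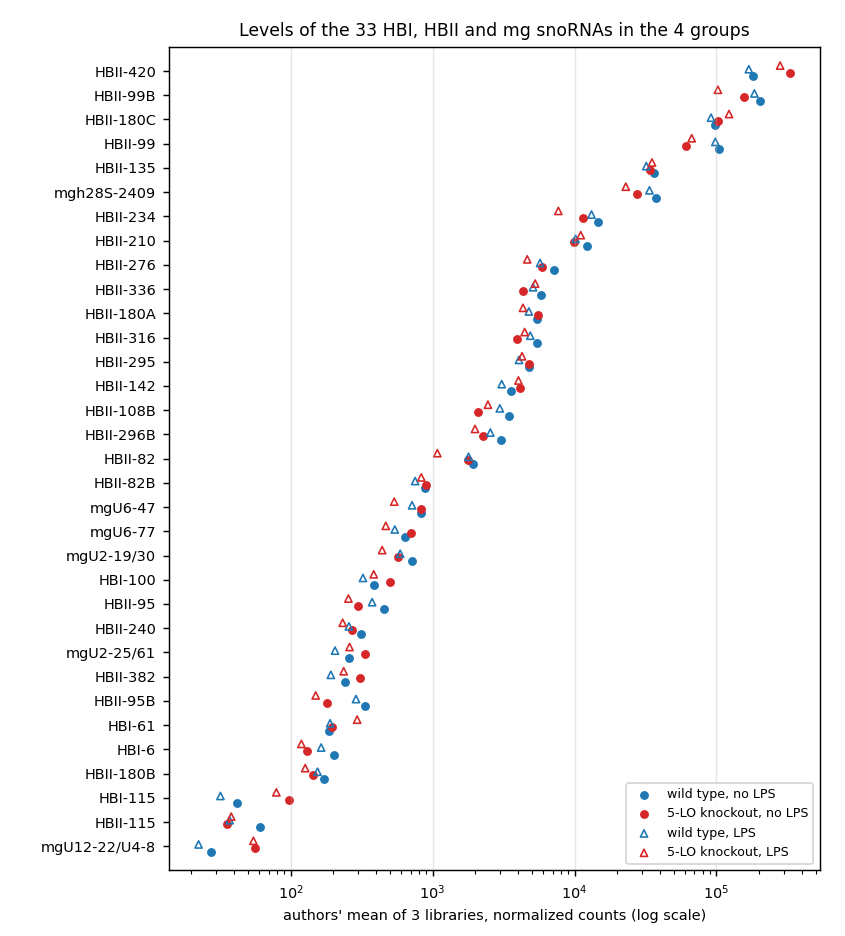
Authors' mean of 3 libraries in normalized counts (x axis, log scale) for each of the 33 members, ordered by their share of the member sum; circles are without LPS, open triangles with LPS, blue wild type and red 5-LO knockout. HBII-420 stands at the top with both knockout means (329849 and 280707) to the right of both wild-type means (182082 and 168965).

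Per length, the order of the 23 located members was nearly the same in all groups. HBII-420 ranked first in all 4, with 246057 normalized counts per 100 nt of annotated length in wild-type and 445742 in knockout cells without LPS. HBII-99 was next in wild-type cells (116231 per 100 nt without LPS, against 107133 for HBII-180C), whereas HBII-180C was above HBII-99 in both knockout groups (112073 against 67264 without LPS). The lowest were the H/ACA RNA HBI-115 (30.2 per 100 nt) and HBII-115 (55.8) in wild-type cells without LPS, and HBI-115 lay above HBII-115 in both knockout groups. The 3 SNORA members had 30.2 to 165 normalized counts per 100 nt and the 18 located SNORD members 55.8 to 246057 in wild-type cells without LPS. Inserts of 4 to 134 nt were selected, so RNAs longer than this were counted from fragments and their levels per length are not like those of the short members. These were HBI-115 (138 nt), mgU6-77 (142 nt), HBI-100 (143 nt), HBI-61 (178 nt), HBII-296B (222 nt) and mgU2-19/30 (SCARNA9, 353 nt). The low rank of HBI-115 and the range of the SNORA members are therefore not separable from the size selection.

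The first comparison asked how the knockout differed from the wild type without LPS. At least 1.5-fold, with an average of both means of at least 10, 3 of 33 members were higher in knockout cells (HBI-115, mgU12-22/U4-8 and HBII-420) and 6 were lower (HBII-95B, HBII-99, HBII-115, HBII-108B, HBI-6 and HBII-95). For 3 of these 9, the 95% counting interval of the log2 ratio also held values under 1.5-fold (0.58 on the log2 scale): HBII-115 (-1.13 to -0.43), HBI-6 (-0.81 to -0.44) and HBII-95 (-0.72 to -0.47). Among all 662 noncoding RNAs past the same minimum, 13.7% were higher and 14% lower, and among the 243 other snoRNAs 9.47% and 8.64%. The median log2 ratio was -0.19 over the members, 0.08 over the other snoRNAs and 0.02 over all noncoding RNAs. Below 0 were 19 of the 33 members (57.6%), against 42.4% of the other snoRNAs and 48.0% of all noncoding RNAs. A further 7 members were below 0 with equal summed means. With the summed means of both genotypes set equal, 3 members were higher and 10 lower, against 6.95% higher and 22.5% lower of all noncoding RNAs and 4.12% and 15.6% of the other snoRNAs.

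With LPS, 4 of 33 members were higher in knockout cells (HBI-115, mgU12-22/U4-8, HBII-420 and HBI-61) and 4 were lower (HBII-95B, HBII-99B, HBII-234 and HBII-82). The counting interval of HBI-61 (0.48 to 0.79) also held values under 1.5-fold. The background was 13.6% higher and 16.5% lower among 660 noncoding RNAs, and 12.8% and 8.26% among 242 other snoRNAs. The median log2 ratio was -0.14 over the members, 0.02 over the other snoRNAs and -0.01 over all noncoding RNAs. With equal summed means, 3 members were higher (HBI-61 was no longer past 1.5-fold) and 7 lower, against 9.39% and 20.6% of all noncoding RNAs and 6.61% and 12.4% of the other snoRNAs.

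**Figure D2:**
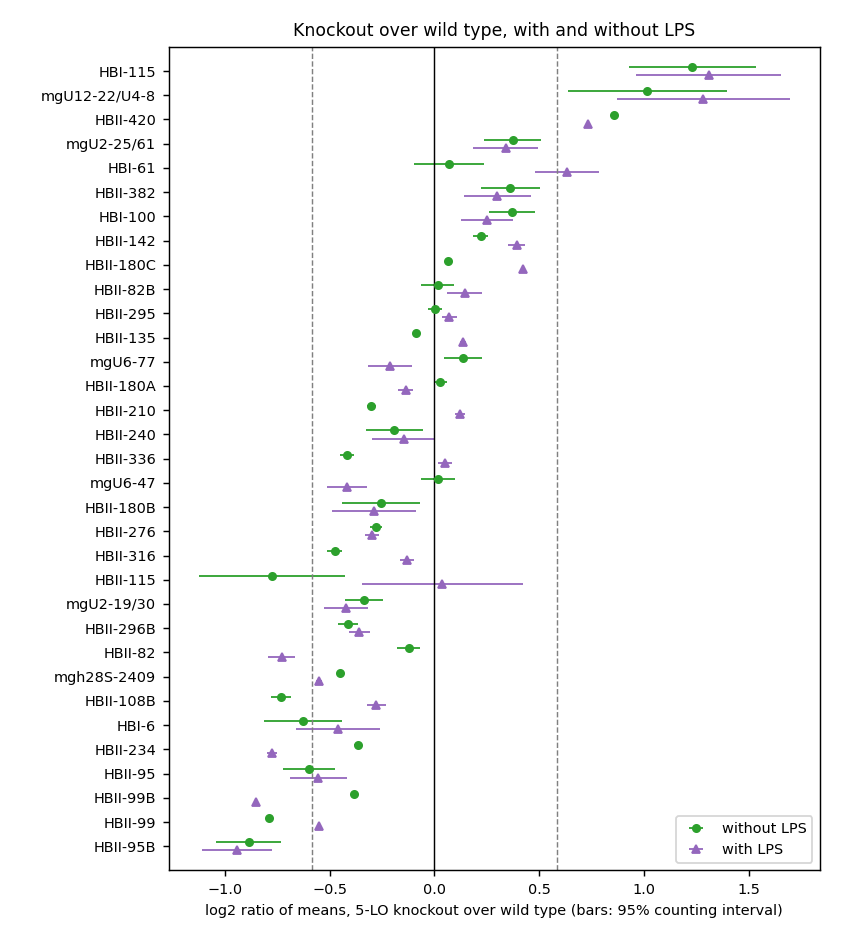
Log2 ratio of the knockout to the wild-type mean (x axis) for each member without LPS (circles) and with LPS (triangles), bars giving the 95% counting interval and dashed lines 1.5-fold in each direction. HBI-115, mgU12-22/U4-8 and HBII-420 lie beyond the upper line in both comparisons and HBII-95B beyond the lower line.

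Past 1.5-fold in the same direction in both comparisons were 3 higher members and 1 lower member of 33. Among the 242 other snoRNAs these were 5.79% higher and 4.96% lower. The share past 1.5-fold in both comparisons was not counted over all noncoding RNAs. With equal summed means the same 3 members were higher in both and 4 were lower in both (HBII-95B, HBII-95, HBII-99 and mgh28S-2409), against 2.89% and 7.02% of the other snoRNAs. The tables share no library. HBI-115, an H/ACA box RNA, had means of 41.6 in wild-type and 97.7 in knockout cells without LPS, and 32.1 and 79.4 with LPS. Both knockout means were thus more than 2 times the wild-type means, a log2 ratio of 1.23 without LPS (95% counting interval 0.93 to 1.53) and 1.31 with LPS (0.96 to 1.65). It was a rare RNA, with 131 estimated reads over the 3 wild-type libraries without LPS. mgU12-22/U4-8, named for its targets on the U12 and U4 snRNAs, had means of 27.6 and 55.9 without LPS and of 22.5 and 54.7 with LPS (log2 ratios 1.02 and 1.28). All 4 of its means were identical to those of the entry U91, so that both names stand for 1 set of reads, and it had the lowest mean of the members in both wild-type groups.

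HBII-420 was the one abundant RNA among them. Its means were 182082 in wild-type and 329849 in knockout cells without LPS, a 1.81-fold difference (log2 ratio 0.86, 95% counting interval 0.85 to 0.86), and 168965 and 280707 with LPS, a 1.66-fold difference (log2 ratio 0.73). HBII-95B, the lower member, had means of 333 and 180 without LPS and of 289 and 150 with LPS (log2 ratios -0.89 and -0.94), the lowest ratio of all members in both comparisons.

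Of the 12 members of highest mean share, HBII-99, HBII-99B, mgh28S-2409, HBII-234, HBII-276 and HBII-316 were lower in knockout cells in both comparisons. HBII-180C (log2 ratios 0.07 and 0.42), HBII-135 (-0.09 and 0.14), HBII-180A, HBII-210 and HBII-336 were not, and HBII-420 was higher. HBII-99 had means of 104608 in wild-type and 60538 in knockout cells without LPS (log2 ratio -0.79) and of 98131 and 66900 with LPS (-0.55). HBII-99B, which had the highest mean of all members in both wild-type groups, had means of 203626 and 156135 without LPS (-0.38) and of 184926 and 102357 with LPS (-0.85). The pair was thus lower in both knockout groups, HBII-99 more so without LPS and HBII-99B more so with LPS. The difference of HBII-99B minus HBII-99 in log2 ratio was 0.41 without LPS (95% counting interval 0.40 to 0.42) and -0.30 with LPS (-0.31 to -0.29). mgh28S-2409, by its name a guide of 28S rRNA, had means of 37334 and 27345 without LPS (-0.45) and of 33710 and 22977 with LPS (-0.55). HBII-276 had means of 7203 and 5936 without LPS (-0.28) and of 5720 and 4646 with LPS (-0.30).

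Other members had different ratios in the 2 comparisons. HBII-82 had means of 1921 and 1765 without LPS (log2 ratio -0.12) and of 1792 and 1081 with LPS (-0.73). HBII-82B, named alike, had ratios of 0.02 and 0.14, so that its ratio with LPS was 0.87 above that of HBII-82 (95% counting interval 0.77 to 0.98). HBII-108B had means of 3457 and 2081 without LPS (-0.73) and of 2977 and 2456 with LPS (-0.28). HBII-210, HBII-316 and HBII-336 were lower without LPS (log2 ratios -0.30, -0.48 and -0.42) and near the wild type with LPS (0.12, -0.13 and 0.05). HBII-115 had means of 61.4 and 35.8 without LPS (-0.78) and of 37.2 and 38.2 with LPS (0.04, 95% counting interval -0.35 to 0.42), at no more than 193 estimated reads in a group. HBII-135 had means of 32013 to 36317 in the 4 groups. The members not named here with ratios of their own, HBII-142, HBII-240, HBII-295 and HBII-296B, lay between -0.41 and 0.39 in both comparisons.

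The guides of spliceosomal RNAs did not move as 1 group. The U6 guide mgU6-47 had means of 825 in wild-type and 835 in knockout cells without LPS and of 717 and 537 with LPS (log2 ratios 0.02 and -0.42). mgU6-77 had means of 641 and 705 without LPS and of 542 and 468 with LPS (0.14 and -0.21). Both were near the wild type without LPS and below it with LPS, and neither was past 1.5-fold. With equal summed means, the ratios without LPS became -0.16 and -0.04.

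Among the guides of U2, mgU2-19/30 (SCARNA9) was lower, with means of 721 and 571 without LPS and of 592 and 442 with LPS (log2 ratios -0.34 and -0.42). mgU2-25/61 was higher, with means of 258 and 334 without LPS and of 206 and 260 with LPS (0.37 and 0.34). HBII-382 has the same symbol as mgU2-25/61, SCARNA2, and its means were close (241, 310, 192 and 237 in the same order, ratios 0.36 and 0.30), so that the pair may stand for 1 RNA and is not 2 observations. HBI-100 (SCARNA3), also a Cajal body RNA, had means of 389 and 502 without LPS and of 324 and 385 with LPS (0.37 and 0.25). None of these 4 entries, which stand for 3 symbols, was past 1.5-fold. U91, whose means are those of mgU12-22/U4-8, has the symbol SCARNA17, also a Cajal body RNA, and was past 1.5-fold in both comparisons, as given above.

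The H/ACA members HBI-6 and HBI-61 had other ratios than HBI-115. HBI-6 (SNORA26, in DANCR) had means of 201 and 130 without LPS and of 164 and 119 with LPS (log2 ratios -0.63 and -0.46). HBI-61 (SNORA81, in EIF4A2) had means of 186 and 195 without LPS and of 190 and 294 with LPS (0.07 and 0.63), so it was past 1.5-fold with LPS only, and with equal summed means in neither comparison (0.56 with LPS). The difference between its 2 ratios was 0.56 (95% counting interval 0.33 to 0.79).

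Across the members, the ratio with LPS followed the ratio without LPS, with Pearson's r = 0.82 and Spearman's rho = 0.75 over 33 members, and 0.74 and 0.77 over 242 other snoRNAs. These are correlations across RNAs, not across libraries, and are given as descriptions. Of the members, 11 were above 0 in both comparisons, 15 below 0 in both and 7 changed sign (78.8% with the same sign, against 77.7% of the other snoRNAs). These counts depend on the scaling, and with equal summed means they were 7, 20 and 6. The difference between both ratios exceeded its counting interval in 20 of 33 members (60.6%) and in 141 of 242 other snoRNAs (58.3%). It was lowest for HBII-82 (-0.61) and highest for HBII-115 (0.81).

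**Figure D3:**
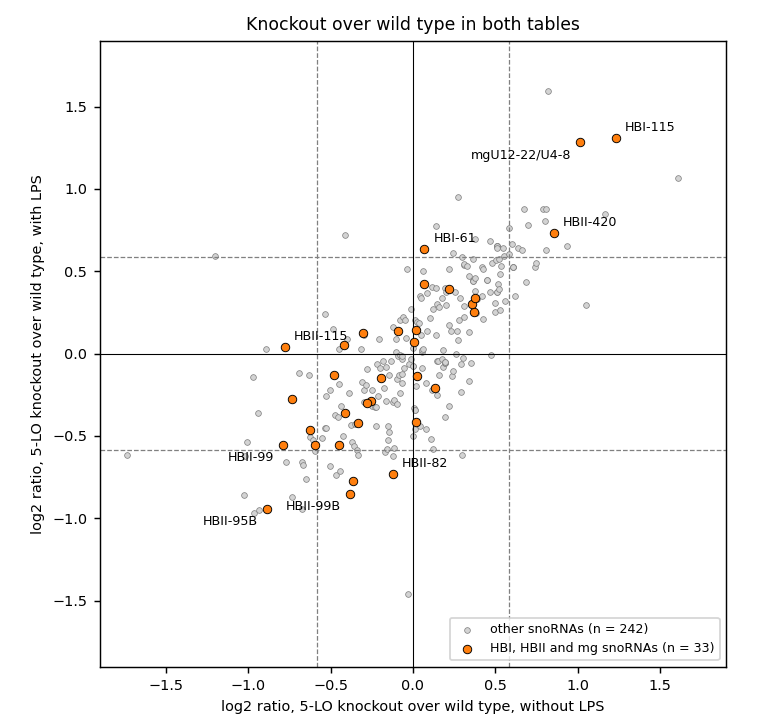
Log2 ratio of the knockout to the wild-type mean without LPS (x axis) and with LPS (y axis) for the 33 members (orange) and 242 other snoRNAs (grey), dashed lines at 1.5-fold. Most members lie among the other snoRNAs, with HBI-115, mgU12-22/U4-8 and HBII-420 at the upper right and HBII-95B at the lower left.

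The ratios were weakly related to level, length or base composition. With the log10 wild-type mean r was -0.23 without LPS and -0.30 with LPS (33 members), with annotated length -0.02 and -0.05, and with GC content, which ran from 31.3% to 70.3%, 0.19 and 0.29 (23 members).

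Host genes give a further comparison, because snoRNAs of 1 host are cut from the same precursor transcript. RefSeq placed at least 1 other listed snoRNA in the same gene for members of 8 host genes, which gave 13 pairs. Rows without a symbol, among them HBII-99B and HBII-95B, could not be placed and are not in these pairs. The pairs had the same sign in 5 of 13 without LPS and in 9 of 13 with LPS, and with equal summed means in 11 of 13 and 8 of 13, so that the count without LPS depends on the scaling. In ZFAS1, HBII-99 and U106 (SNORD12C) were both lower in knockout cells: U106 had means of 108867 and 53350 without LPS (log2 ratio -1.03) and of 92170 and 50880 with LPS (-0.86), against -0.79 and -0.55 for HBII-99. In NOP58, the gene of a core protein of C/D box particles, HBII-234 (14725 and 11434 without LPS, 13177 and 7695 with LPS, ratios -0.36 and -0.78) and HBII-95 (452 and 299, 375 and 256, ratios -0.60 and -0.55) were both lower.

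In SNHG12 the rows did not move together. HBII-420 was higher, but ACA16 (SNORA16A) had means of 584 and 563 without LPS and of 510 and 588 with LPS (log2 ratios -0.05 and 0.21). ACA44 (SNORA44) had means of 377 and 351 without LPS and of 299 and 301 with LPS (-0.10 and 0.01). RefSeq places both in SNHG12, but the GRCh37 annotation used here gives no locus for SNORA16A and puts SNORA44 elsewhere on chromosome 1, outside any host gene, so these comparisons rest on the RefSeq placement. The ratio of HBII-420 exceeded that of ACA16 by 0.91 without LPS (95% counting interval 0.81 to 1.01) and by 0.53 with LPS (0.43 to 0.63), and that of ACA44 by 0.96 and 0.72. In EIF4A2, snR39B (SNORD2), with means of 211039 to 241641, had ratios of 0.00 and -0.07 beside 0.07 and 0.63 for HBI-61. ACA4 (SNORA4), the other row of that gene, had means of 28.4 and 21.3 without LPS and of 15.6 and 25.8 with LPS (-0.41 and 0.72), and with LPS its ratio differed from that of HBI-61 by less than the counting error (HBI-61 minus ACA4 -0.09, 95% counting interval -0.64 to 0.46). In EIF4A1, ACA48 (SNORA48) had ratios of -0.59 in both comparisons and U67 (SNORA67) of 0.05 and 0.34, beside 0.14 and -0.21 for mgU6-77. U53 (SNORD53), in WDR43 with HBII-316, had ratios of -0.22 and -0.06, and U49B (SNORD49B), in SNHG29 with HBII-135, of 0.14 and 0.12.

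**Figure D4:**
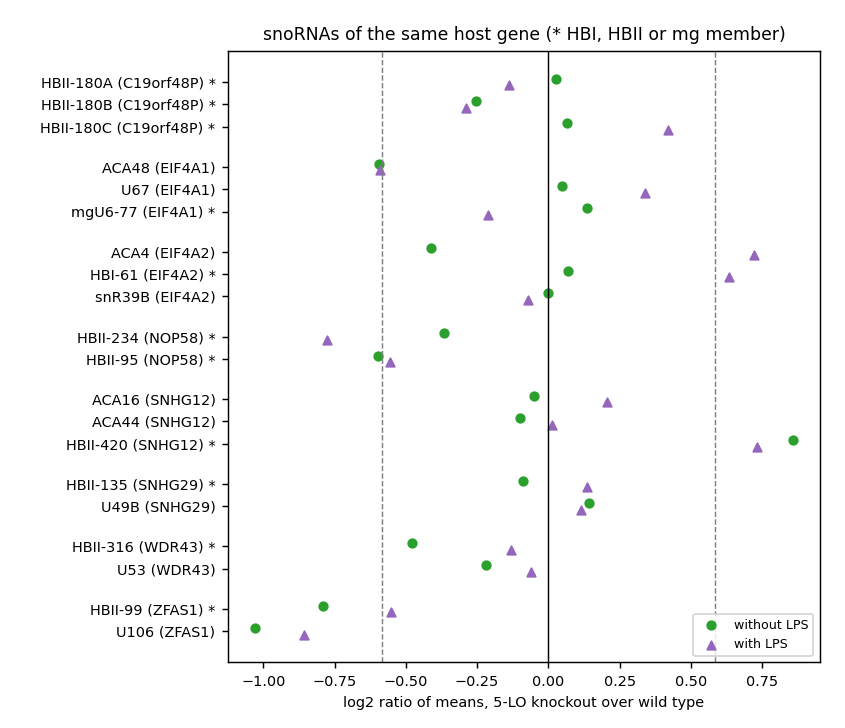
Log2 ratio of the knockout to the wild-type mean (x axis) for listed snoRNAs that lie in the same RefSeq gene (in brackets), without LPS (circles) and with LPS (triangles), asterisks marking the HBI, HBII and mg members. Both ZFAS1 rows and both NOP58 rows are left of 0, whereas in SNHG12 HBII-420 stands apart at 0.86 and 0.73.

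The HBII-180 copies in C19orf48P had close sequences and very different levels. HBII-180A and HBII-180B were identical at 91.2% of 91 bases (8 differ), and each was identical to HBII-180C at 87.9% (11 differ). In wild-type cells without LPS the means were 5404 for HBII-180A, 173 for HBII-180B and 97491 for HBII-180C. HBII-180C held 94.6% of the sum of the copies there, 94.8% in knockout cells without LPS, and 94.9% and 96.5% in wild-type and knockout cells with LPS. Their log2 ratios without LPS were 0.03, -0.26 and 0.07. With LPS they were -0.14, -0.29 and 0.42, as the knockout mean of HBII-180C was 122514 against 91545 in the wild type. How reads that match more than 1 copy were assigned is not stated, so the values of the copies are uncertain.

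LPS and no LPS are in tables that were normalized separately, so each genotype's ratio of LPS to no LPS was taken relative to the median of 275 snoRNAs (a log2 shift of -0.19 in both genotypes) and is a description. In wild-type cells the members hardly differed among themselves. Their median was -0.02, with an interquartile range of 0.12 and an SD over members of 0.12. In knockout cells the median was -0.04, with an interquartile range of 0.40 and an SD of 0.30. The other 242 snoRNAs had the same pattern, with interquartile ranges of 0.11 and 0.38. The wider spread in knockout cells was therefore not a feature of the members alone, and the unlabelled clones of the knockout libraries cannot be told apart from it.

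In knockout cells HBI-61 had the highest LPS ratio among members (0.78, against 0.22 in wild-type cells), followed by HBII-336 (0.46 against 0.00), HBII-180C (0.45 against 0.10) and HBII-108B (0.43 against -0.02). The lowest were HBII-82 (-0.52 against 0.09), mgU6-47 (-0.45 against -0.01), HBII-99B (-0.42 against 0.05) and mgU6-77 (-0.40 against -0.05). In wild-type cells only HBII-115 lay further than 0.3 from the median snoRNA (-0.53), at 193 estimated reads without LPS and 129 with LPS. In knockout cells 12 of 33 members did, as did 65 of the 242 other snoRNAs (16 of 242 in wild-type cells). The distance of 0.3 was chosen after the values were seen.

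**Figure D5:**
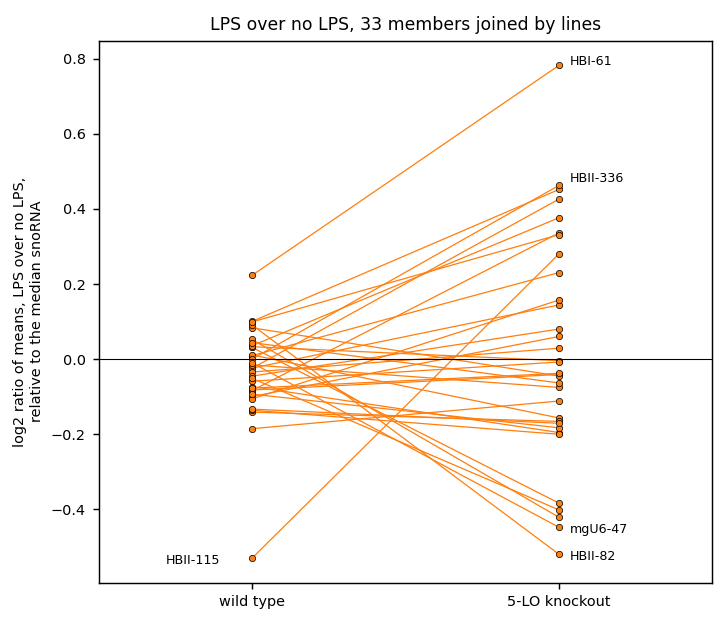
Log2 ratio of the mean with LPS to the mean without LPS, relative to the median snoRNA (y axis), in wild-type and 5-LO knockout cells, each line joining the values of 1 member. Wild-type values lie between -0.53 and 0.22 and all but HBII-115 and HBI-61 are within 0.19 of 0, while knockout values spread from -0.52 to 0.78.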

How the data were processed

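Total RNA of 12 samples (4 groups of 3) was made into small RNA libraries, size selected at 130 to 260 bp including 126 bp linkers. Per the study's methods, the authors annotated the reads with omiRas and deposited, per genotype and table, the mean of normalized counts over 3 libraries, a signal value. The build is hg19 per the submitters' processing notes. Not given in the sources used here are the aligner, the normalization and the handling of reads with several matches. The tables also hold the authors' fold changes, p-values and FDR, which were not used.

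The members and lists were chosen with earlier results of these data known. Log2 ratios of the deposited means were taken without a pseudocount, and a 1.5-fold difference was counted where both means averaged at least 10. Size factors were recovered from means up to 10, as whole multiples of 3 steps per group. All such means were explained within 1.5 units of their last digit. Reads of single libraries could not be recovered for any member, so no test was run. Counting intervals (95%) assume Poisson counts, and reads without molecular identifiers are not independent molecules. The scripts were tested on simulated data. Named with values are the 12 members of highest mean share, those past 1.5-fold the same way in both tables, the 5 highest and 5 lowest ratios per table, and every mg, H/ACA and Cajal body entry. HBII-180B and rows of shared host genes were added for their host, and HBII-82B for its name. Symbols come from RefSeq (GRCh38) synonyms, and loci, hosts and sequences from GRCh37 with GENCODE v44 lifted to it. Other snoRNAs in a host were taken from RefSeq spans. The host was the same in RefSeq for all 23 located members. The software was pandas 2.3.3 with numpy 2.4.6, scipy 1.17.1, pysam and matplotlib under Python 3.11.15.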

Additional observations from a re-analysis of the deposited data

How the results depend on the processing

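No paired analysis was possible because the columns are means and carry no replicate number. Leaving out each replicate was not run for the same reason, so a difference that rests on 1 library, or on 1 knockout clone, would not be seen. Counts and medians were recomputed with other scalings, minimum means, added values and a fold of 2, and without mgU2-25/61. That last alternative, and all those for the counts in both comparisons, were chosen after seeing the data. With equal sums of all means, 10 in place of 6 members were lower without LPS and 7 in place of 4 with LPS, 4 in place of 1 were lower in both, and the medians were -0.37 and -0.21 in place of -0.19 and -0.14. With equal sums of snoRNA means the median without LPS was -0.25. At a fold of 2, 0 members were lower in either comparison or in both, and 2 in place of 4 were higher with LPS. The other counts were within 1.5 times. LPS ratios as deposited had medians of -0.22 in wild-type and -0.23 in knockout cells, and with equal sums of all means the knockout median was 0.031. Without HBII-420, the share of the snoRNA sum was 7.98% and 6.12% without LPS and 8.10% and 6.63% with LPS, wild type first. The sign of the ratio was the same under the 4 scalings for 26 of 33 members without LPS and 31 with LPS, and all members past 1.5-fold kept theirs.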
